A study of Arabidopsis thaliana with 9 samples.

Results

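The 7 PLETHORA and AINTEGUMENTA genes of Arabidopsis thaliana were taken by gene identifier from a deposited table of 33560 genes. They are PLT1 (AT3G20840), PLT2 (AT1G51190), PLT3 (AT5G10510), BBM (AT5G17430), PLT5 (AT5G57390), PLT7 (AT5G65510) and ANT (AT4G37750), and each identifier was found once. The table comes from RNA sequencing of seedling root tips at 5 days of age, in 3 genotypes that have 3 libraries apiece. Col-0 is a wild-type accession. The wox5-1 plants carry a mutant allele of WOX5, a homeobox gene of the quiescent centre, the organizing cells of the root stem cell niche. The seu-3 plants carry a mutant allele of SEU (SEUSS), a co-regulator of transcription and partner of LEUNIG. No transgene or treatment is named for any of the 9 samples; all seedlings were chilled for 2 days and then grown upright for 5 days on medium with sucrose. The tissue is given as about 1 mm of root tip in one place of the labels and about 3 mm in another. Whether the 3 samples of a genotype were sown or harvested separately is not in the labels; every p-value therefore reflects only the spread among these samples, which may be technical.

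PLETHORA and AINTEGUMENTA proteins are transcription factors with a pair of AP2 DNA-binding domains. In the root tip they form gradients that are highest around the stem cell niche, where high levels maintain stem cells, intermediate levels accompany division and low levels allow differentiation. Auxin sets up the gradients over a longer time, and the root growth factor (RGF) peptides extend the protein gradient through receptor kinases. PLT1 and PLT2 act redundantly in specifying the niche, PLT3 and BBM (also called PLT4) act with them, PLT5 and PLT7 act with PLT3 in lateral root outgrowth and leaf arrangement, and ANT promotes organ growth in the shoot and divisions in the cambium.

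How alike the genes are bears on whether short reads can tell them apart, so the 60 bases of coding DNA that were most alike in all 7 are printed here. They come from the RefSeq TAIR10.1 assembly, are written 5′ to 3′ on the coding strand, and carry capitals at the 41 positions that were identical in all 7. Each stretch spans 2 coding exons and lies in the part of the gene that encodes the AP2 domains. The genomic spans, introns included, are chr3:7301387-7301536 (plus strand), chr1:18978343-18978490 (plus), chr5:3317257-3317485 (plus), chr5:5744318-5744604 (minus), chr5:23255248-23255441 (minus), chr5:26186839-26187193 (plus) and chr4:17740780-17740926 (plus).
PLT1: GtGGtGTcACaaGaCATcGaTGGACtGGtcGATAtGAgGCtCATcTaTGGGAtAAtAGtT
PLT2: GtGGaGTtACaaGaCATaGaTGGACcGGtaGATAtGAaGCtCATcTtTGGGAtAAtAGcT
PLT3: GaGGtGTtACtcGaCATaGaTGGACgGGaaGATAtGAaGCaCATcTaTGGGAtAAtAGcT
BBM: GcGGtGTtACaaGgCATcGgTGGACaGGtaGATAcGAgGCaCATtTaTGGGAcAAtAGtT
PLT5: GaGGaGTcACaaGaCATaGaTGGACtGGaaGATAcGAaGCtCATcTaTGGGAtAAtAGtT
PLT7: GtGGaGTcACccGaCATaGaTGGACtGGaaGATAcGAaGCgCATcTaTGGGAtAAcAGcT
ANT: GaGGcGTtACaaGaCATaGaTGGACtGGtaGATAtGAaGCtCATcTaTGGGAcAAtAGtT
Over the aligned coding sequences PLT1 and PLT2 were identical at 81.1% of bases and PLT3 and PLT7 at 80.9%, while the other 19 pairs lay between 64.6% and 71.7%. The longest run of identical bases shared by the transcripts of any pair, untranslated parts included, was 38, between PLT1 and PLT2. It was 34 between PLT3 and PLT7. Read length is not given in the sources used here, so how reads over such runs were divided between these genes is not known.

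The DNA before the gene start is shown for the 3 genes that were abundant enough to be tested, since auxin response factors act above this family and WOX5 is a WOX gene. Each window is the 300 bases before the annotated start in TAIR10.1, read on the gene's own strand, which is plus for all 3. The windows are chr3:7300144-7300443 for PLT1, chr1:18976876-18977175 for PLT2 and chr5:3315101-3315400 for PLT3. Capitals mark TGTCGG, a motif bound by auxin response factors, or its reverse complement CCGACA, in PLT1 and PLT3, and TTAATGG, a motif bound by WUSCHEL, the founding member of the WOX family, in PLT2.
PLT1: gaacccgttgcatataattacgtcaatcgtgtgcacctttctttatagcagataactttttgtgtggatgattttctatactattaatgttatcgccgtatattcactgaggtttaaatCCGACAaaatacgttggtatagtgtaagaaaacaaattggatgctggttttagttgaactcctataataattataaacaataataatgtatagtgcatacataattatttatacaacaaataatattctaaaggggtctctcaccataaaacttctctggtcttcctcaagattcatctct
PLT2: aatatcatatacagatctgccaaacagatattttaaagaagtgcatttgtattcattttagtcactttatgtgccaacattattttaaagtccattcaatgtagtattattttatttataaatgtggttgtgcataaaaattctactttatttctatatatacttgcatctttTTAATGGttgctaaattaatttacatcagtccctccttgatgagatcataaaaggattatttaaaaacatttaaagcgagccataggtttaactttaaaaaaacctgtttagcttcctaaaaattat
PLT3: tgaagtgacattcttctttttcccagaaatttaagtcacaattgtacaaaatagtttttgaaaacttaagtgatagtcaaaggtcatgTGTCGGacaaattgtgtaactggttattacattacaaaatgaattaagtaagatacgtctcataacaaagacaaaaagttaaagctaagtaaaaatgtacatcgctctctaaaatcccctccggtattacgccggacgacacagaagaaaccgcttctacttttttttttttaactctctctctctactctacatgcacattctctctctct
Searched on both strands, TGTCGG was present in 3 of the 7 windows (PLT1, PLT3 and PLT5) and in 4.91% of 27443 annotated genes' windows of the same length. TGTCTC, another auxin response motif, was present in 2 of 7 (BBM and PLT7) against 13.0%, TTAATGG in 1 of 7 (PLT2) against 8.04%, and TGTCAG, a motif of GRF factors, in 0 of 7 against 6.30%. None of these motifs overlapped another in the 7 windows. These matches describe the letters of the windows and are not binding sites. The longest run shared by any 2 of the 7 windows was 17 bases, between PLT3 and PLT7, and it is shown next in capitals with 20 bases on each side. It begins 76 bases before the start of PLT3 (chr5:3315305-3315361, plus strand) and 173 bases before that of PLT7 (chr5:26185400-26185456, plus strand).
PLT3: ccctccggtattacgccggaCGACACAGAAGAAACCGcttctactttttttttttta
PLT7: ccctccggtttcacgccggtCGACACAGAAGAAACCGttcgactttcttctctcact
The next longest shared runs were 13 bases, between BBM and PLT7, and 12 bases, between PLT1 and BBM.

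All levels are FPKM, fragments per kilobase of transcript and per unit of mapped fragments, so they can be compared between genes. A change is a difference of mean log2(FPKM + 1), a scale that shrinks the changes of genes with low FPKM. Limma was run on the 17062 genes whose mean FPKM over the 9 libraries reached 1, and genes were called at an adjusted p below 0.05. PLT1, PLT2 and PLT3 passed this filter, and BBM, PLT5, PLT7 and ANT did not; those 4 were read from a fit of 23816 genes without the filter. FPKM summed to between 794809 and 839181 per library, and a depth of very roughly 7.73 to 11.5 M fragments was estimated from the spacing of the lowest values. WOX5 was listed at 0 in all 3 wox5-1 libraries, at 0.301, 0.461 and 0.524 FPKM in Col-0 and at 0.0884, 0 and 0 in seu-3. SEU was 18.7, 13.3 and 13.2 FPKM in Col-0 and 4.73, 5.22 and 4.19 in seu-3, a change of -1.48 (adjusted p = 0.000580). An exact 0 can be a failed estimate: in wox5-1 replicate 1, 4 genes with at least 5 FPKM in each of the 8 other libraries were listed at 0. Such genes numbered 1 in Col-0 replicate 1 and 1 in seu-3 replicate 3. Over all tested genes the median change against Col-0 was 0.05 for wox5-1 and -0.24 for seu-3, and it was -0.27 in seu-3 against wox5-1; after median-ratio scaling these medians were 0.02, -0.01 and -0.00.

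Libraries differed in the summed FPKM of marker genes of several cell types, in ways that run beside the results below. The summed FPKM of 15 markers of dividing cells was 95.6 to 125 for Col-0, 173 to 221 for wox5-1 and 24.4 to 54.9 for seu-3, lowest in seu-3 replicate 3. Of these markers 8 rose in wox5-1 and 13 fell in seu-3. Of all tested genes 13.7% were called higher and 13.5% lower in wox5-1, and 6.66% higher and 34.2% lower in seu-3. Leaving out a library moved the count of 8 risers to 0 (Col-0 replicate 2 or wox5-1 replicate 1), 3 (Col-0 replicate 1), 5 (wox5-1 replicate 3) or 13 (seu-3 replicate 3), and the fit without a filter called 5. The 6 root cap markers summed to 144 to 177 FPKM in the Col-0 libraries, against 72.2 to 92.1 for wox5-1 and 153 to 164 for seu-3. All 5 tested root cap markers fell in wox5-1, while in seu-3 SMB fell and BFN1 rose, with 2 risers when Col-0 replicate 1 was left out. The 16 markers of differentiated cells summed to 2831 to 2964 FPKM for Col-0, 1876 to 2758 for wox5-1 and 3303 to 4008 for seu-3; 4 of the 13 tested fell in wox5-1, and 1 rose and 1 fell in seu-3. Those 4 falls became 2 when wox5-1 replicate 1 or either of Col-0 replicates 1 and 2 was left out. The single rise in seu-3 became 0 (Col-0 replicate 2 or 3, or seu-3 replicate 1 or 3 left out), 2 (seu-3 replicate 2 or wox5-1 replicate 2) or 3 (wox5-1 replicate 1), and 4 with median-ratio scaling, and the single fall became 2 when seu-3 replicate 1 was left out. The 6 pollen markers summed to 75.6 FPKM in wox5-1 replicate 3, to 10.5 and 4.56 in the other wox5-1 libraries and to between 0.959 and 2.02 elsewhere. The 6 leaf markers summed to 79.0 FPKM in wox5-1 replicate 3 and to between 24.1 and 44.3 elsewhere. Of the 4 shoot meristem markers, 3 were listed at 0 in every library, STM and WUS among them. How far these differences in marker levels bear on the levels of the 7 genes was not tested. In bulk tissue fewer cells of a type and less RNA per cell cannot be told apart.

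PLT3 was the most abundant of the 7 genes in every library, and PLT1, PLT2 and BBM lay well below it. Against Col-0, PLT1 rose 2.75-fold in wox5-1, while PLT2 and PLT3 did not pass the test there. In seu-3, PLT2 fell 3.40-fold and PLT3 fell 3.38-fold, and PLT1, at 2.84-fold lower, did not pass. PLT7, barely detected in Col-0, rose in wox5-1 to a mean of 1.05 FPKM, and ANT was near 0 in all genotypes.

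**Figure D1:**
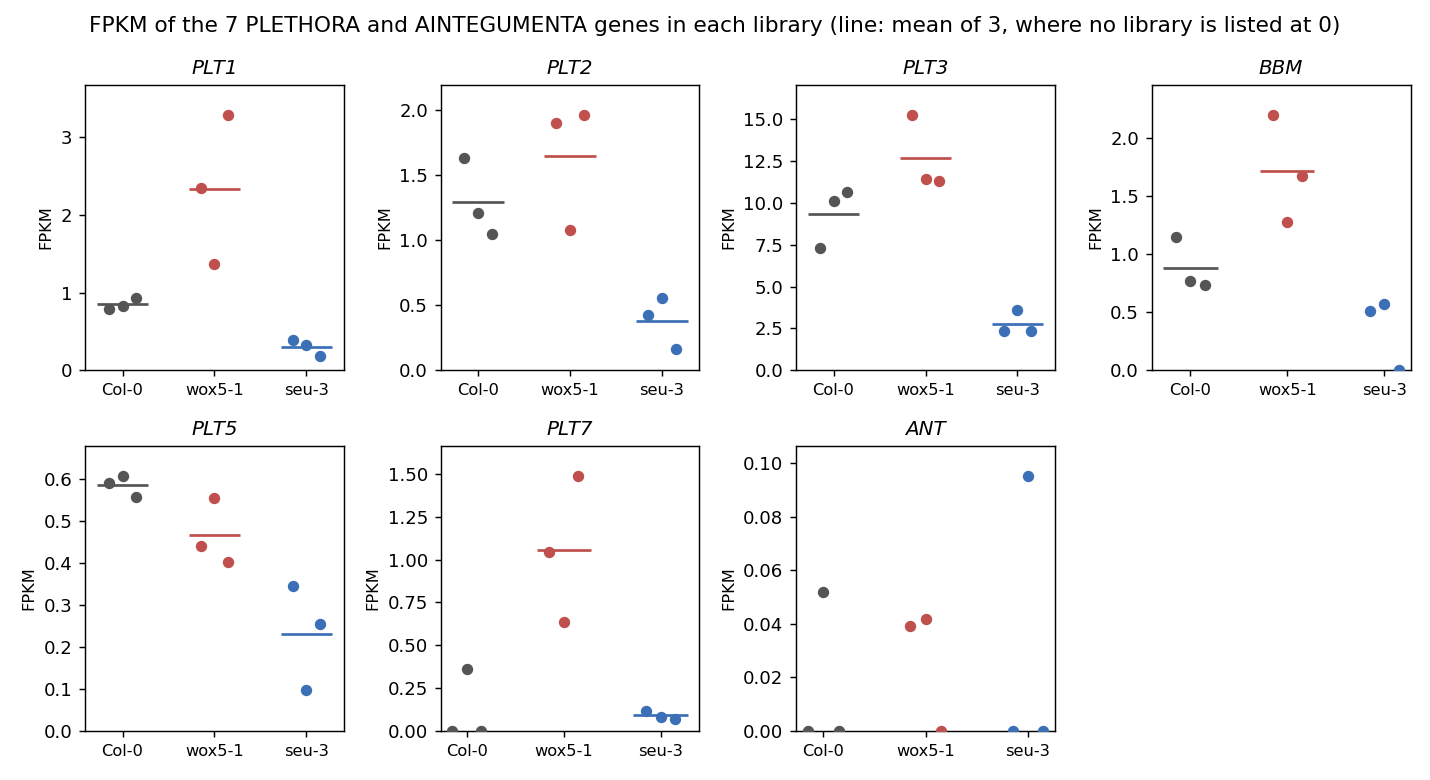
FPKM of each of the 7 genes in the 9 libraries, by genotype. Points are single libraries and lines are the means of the 3 libraries of a genotype, drawn only where no library is listed at 0; each panel has its own vertical scale starting at 0. The wox5-1 points of PLT1, PLT3, BBM and PLT7 lie above every Col-0 point, and those of PLT5 lie below. The seu-3 points of PLT1, PLT2, PLT3, BBM and PLT5 lie below every Col-0 point.

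PLT1 and PLT2 are the pair whose joint loss disrupts the root stem cell niche. PLT1 lies on chromosome 3, has 9 exons and a transcript of 2368 bases. It stood at 0.786, 0.825 and 0.935 FPKM in Col-0, at 2.35, 1.37 and 3.28 in wox5-1, and at 0.394, 0.325 and 0.178 in seu-3. The 3 genotypes did not overlap: every wox5-1 library was above every Col-0 library, and every seu-3 library was below. The means were 0.849 ± 0.0776 FPKM (SD, n = 3) for Col-0, 2.33 ± 0.956 for wox5-1 and 0.299 ± 0.110 for seu-3. The log2 change was 0.81 in wox5-1 (limma adjusted p = 0.0287 in the fit without a filter, and 0.0241, with SE 0.21, in the fit with one). The mean of PLT1 over all 9 libraries, 1.16 FPKM, reached the filter only through its wox5-1 libraries. In the fit with the filter the call was lost when Col-0 replicate 1 (adjusted p = 0.0611), Col-0 replicate 2 (adjusted p = 0.0743) or wox5-1 replicate 1 (adjusted p = 0.0825) was left out. PLT1 was highest in wox5-1 replicate 3, the library with the most pollen and leaf marker transcripts; without it PLT1 did not pass the filter, and the fit without a filter gave 0.61 (adjusted p = 0.0469). The change in seu-3 was -0.51 (adjusted p = 0.0765), or -0.27 relative to the median of all genes. It passed the threshold with a pseudocount of 0.1 FPKM, at -1.29 (adjusted p = 0.0276), and with sample quality weights (adjusted p = 0.0274). It also passed when wox5-1 replicate 2 was left out (adjusted p = 0.0357). Without wox5-1 replicate 3 it passed in the fit without a filter (adjusted p = 0.0322). With quantile normalization it was -0.13. Between the mutants PLT1 was 7.81-fold lower in seu-3 than in wox5-1 (log2 change -1.32, adjusted p = 0.000495). The values stand for roughly 14.9 to 20.3 fragments per Col-0 library and 4.28 to 10.7 per seu-3 library, which limits their precision.

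PLT2 (chromosome 1, 9 exons) was not called in wox5-1 against Col-0. It stood at 1.63, 1.21 and 1.05 FPKM in Col-0, at 1.90, 1.08 and 1.96 in wox5-1 and at 0.427, 0.553 and 0.164 in seu-3. Col-0 and wox5-1 overlapped, and all seu-3 libraries were lower than the other 6. PLT2 reached the filter only through wox5-1, the mean of the other genotypes being below 1 FPKM. The change in wox5-1 was 0.19 (SE 0.20, limma adjusted p = 0.460). In seu-3 it fell by 0.73 on the log2 scale (adjusted p = 0.0161 with the filter and 0.0174 without it), or -0.49 relative to the median of all genes. The fall did not pass without Col-0 replicate 1 (adjusted p = 0.0508), without seu-3 replicate 3 (adjusted p = 0.0584) or with quantile normalization (-0.39, adjusted p = 0.146). Between the mutants it was 4.31-fold lower in seu-3 (log2 change -0.93, adjusted p = 0.00243).

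Since PLT1 and PLT2 are taken as equivalent in function, their ratio within a library was compared between genotypes. The mean log2 ratio of PLT1 to PLT2, on FPKM + 1, was -0.30 ± 0.24 for Col-0, 0.31 ± 0.19 for wox5-1 and -0.08 ± 0.13 for seu-3 (SD, n = 3). PLT2 was thus the more abundant in Col-0 and PLT1 in wox5-1. The wox5-1 ratios lay above all Col-0 ratios, a difference of 0.62 with a two-sided exact permutation p of 0.1, which is the lowest possible with 3 against 3 libraries, and 0.18 after adjustment over the 9 ratio comparisons made. The ratio in seu-3 differed from Col-0 by 0.22 (exact permutation p = 0.2) with overlapping libraries.

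PLT3, which acts with PLT1 and PLT2 in the meristem and is named AIL6 in RefSeq, lies on chromosome 5 and has 7 annotated transcripts. It stood at 7.30, 10.09 and 10.7 FPKM in Col-0, at 15.2, 11.5 and 11.3 in wox5-1 and at 2.36, 3.60 and 2.33 in seu-3. All wox5-1 libraries were above all Col-0 libraries, by a narrow margin, and all seu-3 libraries were far below both. The means were 9.35 ± 1.79 FPKM for Col-0, 12.7 ± 2.22 for wox5-1 and 2.77 ± 0.725 for seu-3 (SD, n = 3). The change in wox5-1 was 0.40 (SE 0.19, limma adjusted p = 0.123), which did not pass. PLT3 fell in seu-3, with a log2 change of -1.46 (SE 0.19, adjusted p = 0.00186), or -1.22 relative to the median of all genes, and ranked 298 from the lowest of 17062. That fall passed without each of the 9 libraries in turn, at adjusted p from 0.00178 to 0.0111. Between the mutants PLT3 was 4.58-fold lower in seu-3 (log2 change -1.86, adjusted p = 9.52e-05). The 3′ end of PLT3 overlaps RBK1 (AT5G10520), a protein kinase gene on the other strand, by 454 bases, and without strand information reads there cannot be told apart. RBK1 was 12.9, 15.6 and 18.6 FPKM in Col-0, 7.63, 10.3 and 8.68 in wox5-1 and 11.05, 9.86 and 7.60 in seu-3. It fell in both mutants, by 0.75 in wox5-1 (adjusted p = 0.0163) and by 0.67 in seu-3 (adjusted p = 0.0144), whereas PLT3 had a higher mean in wox5-1.

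On the log2(FPKM + 1) scale the difference of PLT3 between seu-3 and Col-0 was larger in size than those of PLT1 and PLT2, and the size of the gap depended on the pseudocount. The log2 ratio of PLT1 to PLT3 was 0.95 higher in seu-3 than in Col-0 and that of PLT2 to PLT3 0.73 higher, both with libraries that did not overlap (exact permutation p = 0.1, adjusted p = 0.18). With a pseudocount of 0.1 FPKM the differences were -1.73 for PLT3, -1.61 for PLT2 and -1.29 for PLT1, and the differences of the ratios were 0.44 and 0.12. The ratio of PLT1 to PLT3 between seu-3 and wox5-1 went from 0.54 to -0.40 with that pseudocount. As folds of the mean FPKM, without a pseudocount, PLT2 and PLT3 fell almost equally in seu-3, PLT2 slightly more. In wox5-1 against Col-0 the ratio of PLT1 to PLT3 differed by 0.41 (exact permutation p = 0.3) and that of PLT2 to PLT3 by -0.21 (exact permutation p = 0.6), with overlapping libraries. When 1 library was left out the first ran from 0.14, without wox5-1 replicate 3, to 0.57, and the second from -0.38 to 0.04, turning its direction without Col-0 replicate 1.

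BBM (BABY BOOM), known for inducing embryos when overexpressed and for acting with PLT1 to PLT3 in the root, lies on the minus strand of chromosome 5. It stood at 1.15, 0.766 and 0.738 FPKM in Col-0 and at 2.20, 1.28 and 1.68 in wox5-1; in seu-3 it was 0.513 and 0.573 and listed at 0 in replicate 3. The 3 genotypes did not overlap, with wox5-1 highest and seu-3 lowest. In the fit without a filter the change was 0.52 in wox5-1 (SE 0.20, limma adjusted p = 0.0983) and -0.49 in seu-3 (adjusted p = 0.0973), neither past the threshold. Without seu-3 replicate 3, the library listed at 0, the change in wox5-1 passed (adjusted p = 0.0441) and that in seu-3 was -0.28 (adjusted p = 0.278). BBM was lower in seu-3 than in wox5-1 by 1.01 on the log2 scale (adjusted p = 0.00303).

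PLT7 (AIL7 in RefSeq; chromosome 5, plus strand), the closest relative of PLT3 in coding sequence, rose in wox5-1. It was listed at 0 in Col-0 replicates 1 and 3 and was 0.364 FPKM in replicate 2. It was 1.04, 0.633 and 1.49 FPKM in wox5-1 and 0.115, 0.0842 and 0.0718 in seu-3. All wox5-1 libraries were above all others, and the seu-3 values fell within the range of Col-0. In the fit without a filter the change in wox5-1 was 0.87 (SE 0.17, limma adjusted p = 0.0144), with adjusted p from 0.0108 to 0.0482 without each library in turn; without wox5-1 replicate 3, where PLT7 was highest, it was 0.72 (adjusted p = 0.0304). With a pseudocount of 0.1 FPKM the change was 2.72. The change in seu-3 was -0.02 (adjusted p = 0.967), and PLT7 was lower in seu-3 than in wox5-1 by 0.89 (adjusted p = 0.00234). These levels stand for roughly 10.5 to 19.8 fragments per wox5-1 library and at most 4.66 in the 6 others, so a fall from the Col-0 level was not detectable in seu-3 at this depth.

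PLT5 (AIL5 in RefSeq; chromosome 5, minus strand), the lateral root and leaf arrangement gene that acts with PLT7, did not share the rise of PLT7. It stood at 0.590, 0.607 and 0.558 FPKM in Col-0, at 0.441, 0.555 and 0.403 in wox5-1 and at 0.344, 0.0965 and 0.256 in seu-3. Each wox5-1 library was below each Col-0 library, 1 of them by a narrow margin, and each seu-3 library was below all others. The change in wox5-1 was -0.11 (SE 0.08, limma adjusted p = 0.363, fit without a filter). PLT5 fell in seu-3 by 0.37 (adjusted p = 0.0155). Its values stand for roughly 11.3 to 12.3 fragments per Col-0 library and 1.92 to 9.56 per seu-3 library, which limits their precision. Between the mutants the difference was -0.25 (adjusted p = 0.0342). That last call was lost without seu-3 replicate 2 (adjusted p = 0.103), seu-3 replicate 3 (adjusted p = 0.0650), wox5-1 replicate 1 (adjusted p = 0.0667) or wox5-1 replicate 2 (adjusted p = 0.105), with median-ratio scaling (-0.18, adjusted p = 0.132) and with a pseudocount of 0.1 FPKM (adjusted p = 0.0595).

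ANT (chromosome 4, plus strand), the organ growth gene of the shoot, was at the edge of detection. It was 0.0520 FPKM in Col-0 replicate 2, 0.0952 in seu-3 replicate 2, and 0.0392 and 0.0419 in wox5-1 replicates 1 and 2, and it was listed at 0 in the other 5 libraries. Its highest value stands for roughly 1.69 fragments. The genotypes overlapped, and the change was 0.01 in wox5-1 (limma adjusted p = 0.877) and 0.02 in seu-3 (adjusted p = 0.838).

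**Figure D2:**
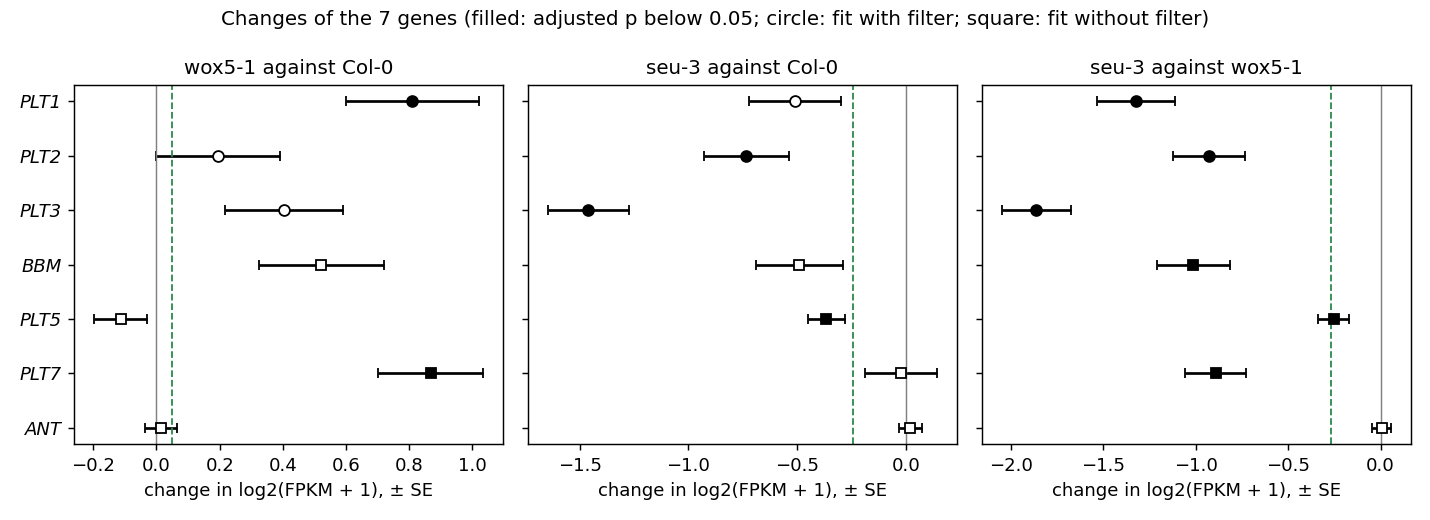
Change in log2(FPKM + 1), with the standard error from limma, of each gene in the 3 comparisons. Filled symbols have an adjusted p below 0.05, circles come from the fit with a filter and squares from the fit without one, and the dashed line is the median of all tested genes. In wox5-1 PLT1 and PLT7 are filled, at 0.81 and 0.87. In seu-3 PLT2, PLT3 and PLT5 are filled.

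Counted together, 4 of the 7 genes were higher in every wox5-1 library than in every Col-0 library (PLT1, PLT3, BBM and PLT7), 1 was lower (PLT5) and 2 overlapped. Over all tested genes 30.2% were higher without overlap and 19.9% lower. The shares without overlap, here and below, cover only genes that passed the filter, which BBM, PLT5, PLT7 and ANT did not. In the limma fit without a filter 2 of 7 were called in wox5-1, against 16.8% of all genes there, 7.77% higher and 8.99% lower. With the filter 27.3% of all tested genes were called, 13.7% higher and 13.5% lower, and PLT1 was called of the 3 genes tested. PLT1 and PLT2 passed the filter only through wox5-1, since for each the mean of the other genotypes was below 1 FPKM. Counts over the 3 genes are therefore given for completeness and support nothing. In seu-3 against Col-0, 5 of 7 were lower without overlap and 0 higher, beside 44.8% and 11.5% of all tested genes. Limma called 2 of 3, both lower, where 40.8% of all tested genes were called, 34.2% lower and 6.66% higher. Without a filter it called 3 of 7, all lower, against 29.0% of all genes, 24.2% lower and 4.77% higher. In seu-3 against wox5-1, 6 of 7 were lower without overlap, beside 48.6% of all tested genes lower and 22.3% higher. Limma called 3 of 3 there, all lower, against 64.5% of all tested genes, 44.6% lower and 19.9% higher, and 6 of 7 without a filter against 50.3%, 35.1% lower and 15.1% higher. The comparisons with Col-0 share the Col-0 libraries. With so many genes called in seu-3, the count of members there is a description with nothing particular to them.

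Taken as a sum, the 7 genes came to 13.1 ± 1.42 FPKM for Col-0, 19.9 ± 3.39 for wox5-1 and 4.16 ± 1.16 for seu-3 (SD, n = 3), between 11.5 and 13.9, 16.4 and 23.2, and 3.00 and 5.33 FPKM. The sums did not overlap between genotypes. PLT3 made up most of the sum in each: 70.9% ± 6.54 for Col-0, 63.9% ± 6.96 for wox5-1 and 67.4% ± 10.4 for seu-3. The share of PLT1 was 6.50% ± 0.497, 11.6% ± 4.18 and 7.17% ± 2.00. PLT7 made up 5.25% ± 1.88 of the sum in wox5-1 and at most 2.62% in any Col-0 library.

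The order of levels differed between genotypes below PLT3. In Col-0, PLT2, BBM and PLT1 followed with overlapping libraries, then PLT5, below each of them in every library, then PLT7 and ANT, which overlapped. In wox5-1 the order was PLT1, BBM, PLT2 and PLT7, each overlapping the next, then PLT5 and then ANT, each lower in every library. In seu-3 PLT3 was above the rest in every library, and among the other 6 each gene overlapped its neighbour in the order.

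Set against the dividing cell markers, which differed between genotypes in the same direction as most of the 7 genes, several of the genes no longer stood apart between genotypes. PLT1 was 7.49 to 8.39 FPKM per 1000 FPKM of those markers for Col-0, 7.94 to 18.7 for wox5-1 and 5.91 to 7.43 for seu-3. The seu-3 range still lay just below that of Col-0, and the ranges of wox5-1 and Col-0 overlapped. PLT3 was 76.4 to 103 for Col-0, 64.3 to 68.8 for wox5-1 and 44.6 to 95.7 for seu-3, so that wox5-1 lay below Col-0 on this scale and seu-3 overlapped both. PLT2 was 8.37 to 17.1, 6.23 to 11.1 and 6.75 to 10.06, and BBM 5.91 to 12.1, 7.43 to 9.93 and 0 to 10.4, all overlapping. PLT5 was 4.47 to 6.17 for Col-0, 1.99 to 3.22 for wox5-1 and 1.76 to 10.5 for seu-3. PLT7 was 0 to 3.70, 3.67 to 8.45 and 1.53 to 2.95. The marker sum is itself a measured value that differs between the genotypes, and whether it accounts for the levels of the 7 genes was not tested.

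**Figure D3:**
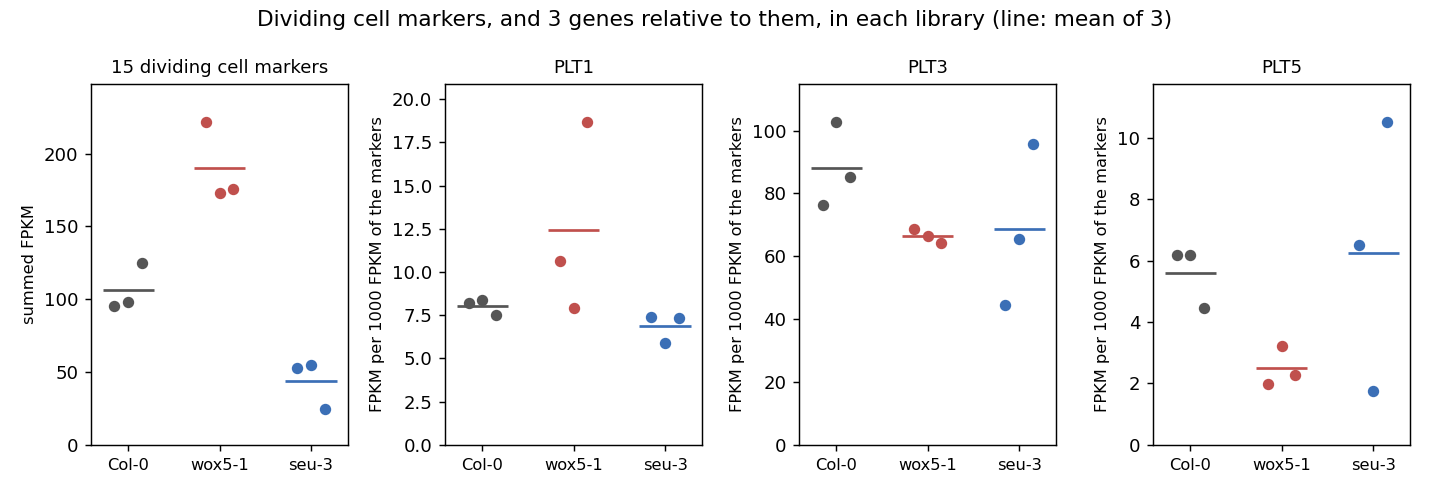
Summed FPKM of the 15 dividing cell markers, and FPKM of PLT1, PLT3 and PLT5 per 1000 FPKM of those markers, in each library; lines are means of 3 libraries and all axes start at 0. The marker sums do not overlap between genotypes. On the relative scale PLT1 spans 7.94 to 18.7 in wox5-1 against 7.49 to 8.39 in Col-0, and PLT5 is lower in every wox5-1 library than in every Col-0 library.

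Across the 9 libraries the levels of PLT1, PLT2, PLT3 and BBM moved together, with Pearson r of log2(FPKM + 1) between 0.826 and 0.926 for the 6 pairs. The highest was between PLT2 and BBM. PLT1 and PLT7 had r = 0.899, and PLT5 and PLT7 had r = 0.149. These values describe 9 libraries in 3 genotypes, which fall into separate groups, and share library effects. Among 12057 genes whose mean was 5 FPKM or more, those with the pattern most like PLT1 were AT1G22520 (r = 0.978), AT3G20390 (r = 0.975) and LSM6B (AT2G43810, r = 0.974). For PLT2 they were AT1G72730 (r = 0.990), AT1G60640 (r = 0.988) and AT3G49420 (r = 0.986). For PLT3 they were AT4G26620 (r = 0.997), AT5G59950 (r = 0.994) and AT4G31880 (r = 0.994).

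The other genes of the pathway are given from their auxin inputs to their targets, beside the medians of all tested genes, 0.05 for wox5-1 and -0.24 for seu-3. Of all tested genes 13.7% were called higher and 13.5% lower in wox5-1. In seu-3 the shares were 6.66% higher and 34.2% lower, and the counts of each list are to be read beside them. Among 5 genes of PIN auxin exporters, which place auxin maxima in the root tip, 5 rose in wox5-1 and 4 fell in seu-3, with medians of 0.83 and -0.72. PIN3 averaged 8.14 FPKM in Col-0, against 15.3 in wox5-1 and 4.65 in seu-3, with changes of 0.83 (adjusted p = 0.00951) and -0.72 (adjusted p = 0.00898). PIN7 rose by 0.72 in wox5-1 (adjusted p = 0.0131) and fell by 0.80 in seu-3 (adjusted p = 0.00568). Leaving out wox5-1 replicate 1 or either of Col-0 replicates 2 and 3 reduced the 5 rises to 2, and leaving out Col-0 replicate 1, wox5-1 replicate 3 or the filter reduced them to 3, while the 4 falls numbered 2 with median-ratio scaling.

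Of 9 auxin inputs, the receptor TIR1 and the response factors and Aux/IAA repressors known to act above the PLT genes, 0 were called in wox5-1, where TIR1 was at 0.34 (adjusted p = 0.0761); without Col-0 replicate 3, 1 rose. In seu-3, 2 rose and 4 fell, with a median of -0.24, but with median-ratio scaling 4 rose and 0 fell. The 2 rises numbered 0 without Col-0 replicate 3 or seu-3 replicate 3, and 1 without Col-0 replicate 2 or seu-3 replicate 1. Of the 4 falls, 1 was left when seu-3 replicate 1 or 3 was dropped, and 2 when seu-3 replicate 2 or any 1 of the Col-0 replicates was. Between the mutants IAA14, an auxin-degraded repressor, was higher in seu-3 than in wox5-1 by 1.17 (adjusted p = 0.000908) and TIR1 was lower by 0.76 (adjusted p = 0.000769). Of 5 tested genes of auxin synthesis 0 were called in wox5-1, or 3 as falls without wox5-1 replicate 3. In seu-3 the flavin monooxygenase YUC3 rose by 0.91 (adjusted p = 0.0139), a call lost without Col-0 replicate 2 (adjusted p = 0.0511), and 2 genes fell, a count that became 0 when Col-0 replicate 1 or 2 or seu-3 replicate 1 or 3 was left out, 1 when seu-3 replicate 2 or wox5-1 replicate 1 was, and 0 with median-ratio scaling.

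The RGF pathway, peptides, the sulfotransferase TPST that activates them, their receptors and the transcription factor RITF1, which together extend PLT protein gradients, had 6 of 8 genes tested. Of these 4 rose in wox5-1 and 5 fell in seu-3, with medians of 0.64 and -0.90. One of the 4, the peptide gene RGF3, reached the filter only through wox5-1. It rose there by 0.82 (adjusted p = 0.0258 with the filter and 0.0342 without it). TPST rose by 0.62 in wox5-1 (adjusted p = 0.00980). The receptor RGFR3 went from 21.5 FPKM in Col-0 to 10.09 in seu-3, a change of -1.06 (adjusted p = 0.00436). RGFR1 fell by 0.74 in seu-3 (adjusted p = 0.00369); it overlaps an annotated noncoding RNA by 2764 bases. The 4 rises became 1 when Col-0 replicate 2 was left out and 2 when wox5-1 replicate 1 was.

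GRF genes, growth regulating transcription factors described as antagonists of the PLT genes between stem cells and dividing cells, had 6 of 9 members tested. Of these 3 rose in wox5-1 and 6 fell in seu-3, with medians of 0.69 and -1.01. GRF6 averaged 1.70 FPKM in Col-0, against 5.13 in wox5-1 and 0.158 in seu-3, with changes of 1.20 (adjusted p = 0.00393) and -1.20 (adjusted p = 0.00352); it reached the filter only through wox5-1, and without a filter the adjusted p were 0.00713 and 0.00642. GRF4 fell by 1.501 in seu-3 (adjusted p = 0.00335). The 3 rises numbered 1 without Col-0 replicate 2 and 5 without seu-3 replicate 3.

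Partners in the stem cell niche were mixed, with 6 of 9 tested. SHR, which patterns the ground tissue, was the riser in wox5-1 at 0.75 (adjusted p = 0.0169), a call lost without Col-0 replicate 1 (adjusted p = 0.0518) or wox5-1 replicate 1 (adjusted p = 0.0689). In seu-3 SHR fell by 1.31 (adjusted p = 0.00203), SCR fell by 0.56 (adjusted p = 0.0320) and TCP21, a TCP transcription factor, rose by 0.72 (adjusted p = 0.00622). The call of SCR was lost without any 1 of the Col-0 replicates, seu-3 replicate 1 or seu-3 replicate 3, at adjusted p of up to 0.110, and with median-ratio scaling, at -0.30 (adjusted p = 0.176). TPL, a co-repressor that works with WOX5, was listed at 0 in wox5-1 replicate 1. Of 3 chromatin regulators known to act on PLT genes, the acetyltransferase subunits HAG1 and ADA2B and the remodeller PKL, 0 were called in wox5-1 and 3 fell in seu-3 (median -0.52), but 0 fell with median-ratio scaling; ADA2B changed by -0.52 (adjusted p = 0.00553).

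Lists linked to ANT, BBM and PLT5 and PLT7 followed no common direction. Of 7 tested genes of ANT growth and the cambium, 1 rose in wox5-1, the D-type cyclin CYCD3;2 at 0.71 (adjusted p = 0.0339), and 1 rose and 4 fell in seu-3. Leaving out any 1 of the Col-0 libraries, seu-3 replicate 1, wox5-1 replicate 1 or wox5-1 replicate 3 ended the call in wox5-1 (adjusted p of up to 0.1201), as did the fit without a filter (adjusted p = 0.0541), and 2 genes rose without seu-3 replicate 3. The single rise in seu-3 became 0 when any 1 of Col-0 replicates 2 and 3 and seu-3 replicates 2 and 3 was left out. In seu-3 CYCD3;3 fell by 1.17 (adjusted p = 0.00446) and CYCD3;2 fell by 0.94 (adjusted p = 0.00789). Of the embryo regulators linked to BBM 0 of 5 passed the filter, and LEC1 and LEC2 were listed at 0 in all 9 libraries. Of the lateral root and organ boundary genes 2 of 7 were tested. LBD16, an activator of lateral root initiation, fell by 1.23 in seu-3 (adjusted p = 0.00773), and GATA23 was at -0.58 in wox5-1 (adjusted p = 0.0637); 0 of the list were called in wox5-1, or 1 without Col-0 replicate 1 or seu-3 replicate 3.

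Of 10 other members of the AP2 family 8 were tested, with 1 riser and 1 faller in wox5-1, 2 risers and 3 fallers in seu-3 and medians of 0.02 and -0.25. WRI1, a regulator of fatty acid synthesis, averaged 10.04 FPKM in Col-0, against 18.9 in wox5-1 and 4.62 in seu-3. Its rise of 0.85 in wox5-1 (adjusted p = 0.0374) was lost without 7 of the 9 libraries, all but seu-3 replicates 2 and 3 (adjusted p of up to 0.132), and in the fit without a filter (adjusted p = 0.0604). WRI4, of the same group, fell by 0.98 in wox5-1 (adjusted p = 0.0253), a call lost when wox5-1 replicate 1 or 2 was left out (adjusted p of up to 0.0780). WRI4 reached the filter only through Col-0; without Col-0 replicate 2 or 3 it was not tested, and the fit without a filter then gave adjusted p = 0.0720 and 0.0403, against 0.0342 with all libraries. TOE2, a relative of AP2 known from flowering time, rose by 0.68 in seu-3 (adjusted p = 0.00226), opposite to PLT2 and PLT3. With median-ratio scaling 1 of the family fell in seu-3 in place of 3.

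**Figure D4:**
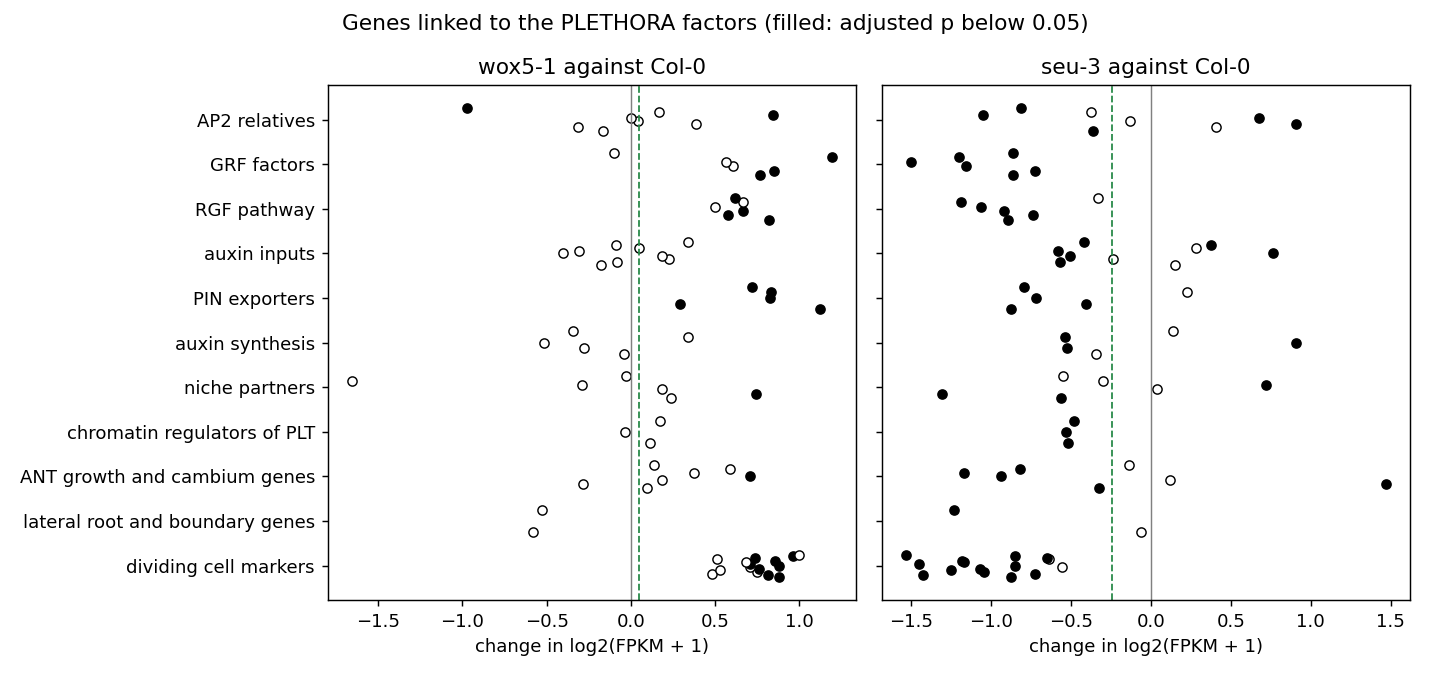
Change in log2(FPKM + 1) of the tested genes of each list, and of the dividing cell markers, in wox5-1 and in seu-3 against Col-0; filled points have an adjusted p below 0.05 and the dashed line is the median of all tested genes. All 5 PIN genes are filled to the right in wox5-1, and all 6 GRF genes are filled to the left in seu-3.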

How the data were processed

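RNA was sequenced from root tips of 9 samples in 3 genotypes. The authors deposited FPKM per gene, made per the submitters' processing notes with Bowtie, Cufflinks and TAIR10; versions, options, read length and strandedness are not given in the sources used here. Of 33560 identifiers 32826 matched the RefSeq TAIR10.1 annotation, which gave positions, overlaps and sequences. No column was left unused.

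Values of log2(FPKM + 1) went into limma 3.58.1 (R 4.3.3): 1 fit of genotype over all 9 libraries, an intensity trend, a filter of 1 FPKM on the mean, Benjamini-Hochberg adjustment over all genes tested, calls below 0.05. All adjusted p of genes are from this tool. The fit with the filter was tested on simulated data for each mutant against Col-0, with independent noise and few genes changed. The fit without a filter and the comparison between the mutants were not simulated. Ratios between genes within a library had two-sided exact permutation tests. Coding sequences were aligned with MAFFT 7.526, and summaries used Python 3.11.15 with pandas 2.3.3, scipy 1.17.1 and matplotlib 3.10.9.

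The 7 genes and the lists of pathway genes and cell type markers were chosen with earlier results of these data known. Named genes follow a rule: the 7 genes, WOX5 and SEU, up to 3 called genes by smallest p per list and comparison, or the 1 with the smallest p, and the 3 genes with the most similar pattern; the text prints part of these, and RBK1, TPL, STM, WUS, LEC1 and LEC2 were named after their values were seen. A planned comparison of protein sequences was replaced by coding DNA. Alternatives were another pseudocount, other filters, median-ratio and quantile scaling, replicate number as a covariate, sample quality weights, only the 6 libraries compared and leaving out each library in turn. Fragment numbers are approximate, and the precision of low values is limited by them.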

Additional observations from a re-analysis of the deposited data

How the results depend on the processing

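For all genes in wox5-1 against Col-0, 4653 calls became 7133 with sample quality weights (4043 higher and 3090 lower) and 1523 to 5628 without 1 library. In seu-3 against Col-0, 6966 became 4630 with quantile normalization, 11040 with sample quality weights and 4575 to 7117 without 1 library. Higher and lower calls there were 1136 and 5830, but 3021 and 3018 with median-ratio scaling and 2280 and 2350 with quantile normalization. In seu-3 against wox5-1 the 11013 calls were 3400 higher and 7613 lower, but 5471 and 5515 with median-ratio scaling, and numbered 9710 to 11008 without 1 library.

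Of the 7 genes, 1 was called in wox5-1, 2 without a filter, 0 at a mean of at least 5 FPKM and 0 to 1 without 1 library. In seu-3, 2 were called, and 3 with a pseudocount of 0.1 FPKM, with sample quality weights or without a filter. The count was 1 at a mean of at least 5 FPKM and 1 with quantile normalization. It was 1 with only the 6 libraries compared, where 1 of the 7 was tested, and 1 to 3 without 1 library. Between the mutants 3 were called, 6 without a filter, 1 at a mean of at least 5 FPKM, where PLT3 alone was tested, and 2 to 4 without 1 library, where 2 to 4 of the 7 were tested. With a pseudocount of 0.1 FPKM the ratio of PLT1 to PLT2 differed by 0.98 in wox5-1 against Col-0 and by -0.66 in seu-3 against wox5-1, that of PLT1 to PLT3 by 0.44 in seu-3 against Col-0 and by -0.40 in seu-3 against wox5-1, and that of PLT2 to PLT3 by 0.12 and 0.26. Apart from fewer genes tested at the higher filter and with only the 6 libraries compared, and more without a filter, the cause of these differences was not tested.

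Same-numbered libraries of different genotypes deviated from their group means with correlations of -0.263 to 0.193, so a shared number was not treated as a pair. With the replicate block 3186 genes were called in wox5-1 (1432 higher and 1754 lower), 5955 in seu-3 and 10499 between the mutants, and 1, 2 and 3 of the 7 genes; PLT5 between the mutants did not pass (adjusted p = 0.0666).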
